A study of Homo sapiens with 6 samples.

Results

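Proteasome subunit and assembly genes were followed in polyA-selected RNA-seq of SPT5-AID cells with and without ARMC5 knockdown. The members were the protein-coding genes named PSMA to PSMG with a number, together with POMP, ADRM1, PAAF1 and SEM1. There were 52 of them among 35810 genes with a matched transcript, and 50 of the 52 were among the 13737 genes tested. SPT5-AID was made from the colorectal adenocarcinoma line DLD-1 by adding an auxin-inducible degron to SPT5, and the plant F-box protein AtAFB2 is present in both groups. Both groups were infected with GIPZ lentivirus and selected with puromycin, and the virus carried an shRNA against ARMC5 (shARMC5, n = 3) or a nontargeting shRNA (shNT, n = 3). No auxin treatment is given for them, and the methods list 2 ARMC5 constructs without saying which was used here. The study counts its replicates as biological, but neither it nor the labels say whether these libraries came from separate cultures or infections, so the P values measure the spread between these libraries only.

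The 26S proteasome degrades proteins that carry chains of ubiquitin, including the substrates of cullin-RING ligases such as the CUL3-ARMC5 ligase that the study is about. Its 20S core is a barrel of alpha subunits (PSMA genes), which form the gate, and beta subunits (PSMB genes), of which PSMB5, PSMB6 and PSMB7 cut peptide bonds. The 19S particle caps the barrel. Its base holds the ATPases (PSMC genes), the scaffolds PSMD1 and PSMD2 and the ubiquitin receptors PSMD4 and ADRM1, and its lid holds the deubiquitinase PSMD14. In cells exposed to interferon, PSMB8, PSMB9 and PSMB10 replace PSMB5, PSMB6 and PSMB7 in the immunoproteasome, and PSME1 and PSME2 form the PA28 activator. Dedicated chaperones build the core (POMP and the PSMG genes) and the base (PSMD5, PSMD9, PSMD10 and PAAF1). The transcription factor NRF1, made by NFE2L1, raises subunit genes together when proteasome activity is short. The comparison asked whether the mRNAs of this machinery differed when ARMC5 was depleted.

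The libraries held 26201112 to 40866478 reads on transcripts. ARMC5 was at 10.8, 11.97 and 12.9 TMM-normalized CPM (reads per 1000000 on genes, scaled by edgeR) in the shARMC5 libraries and at 23.0, 25.9 and 26.7 CPM in the shNT libraries, so the groups did not overlap. edgeR put the log2 fold change at -1.09 (standard error (SE) 0.080, adjusted P = 5.32e-07 from edgeR's quasi-likelihood test). Of all 13737 genes, 610 were called higher (4.44%) and 454 lower (3.3%) at an adjusted P value under 0.1. The epithelial markers summed to 8759 to 8862 CPM in shARMC5 and 7710 to 8020 CPM in shNT libraries, with KRT8, KRT18, EPCAM, CDH1 and CDX2 each over 100 CPM. In edgeR, KRT8 rose by 0.18 (adjusted P = 0.000412) and KRT18 by 0.25 (adjusted P = 1.20e-05) on the log2 scale and VIL1 fell by 1.30 (adjusted P = 2.77e-06), while EPCAM, CDH1 and CDX2 were at 0.030, 0.0013 and 0.011 and were not called. LGALS4 was under 0.5 CPM in every library and KRT20 was not analysed here. Markers of blood, endothelial, stromal and liver cells summed to 0.555 to 0.627 CPM in shARMC5 and 0.571 to 0.612 CPM in shNT libraries, with CD3E and COL3A1 among those at 0. The part of the marker differences in the proteasome values was not tested. In bulk RNA, fewer cells of a type and less RNA per cell cannot be told apart.

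Few single members differed. Of the 50 tested, 3 were called (6%), against 7.75% of all genes. Of these, 2 were called higher, ADRM1 and PSMD1, which is 4% against 4.44% of all genes, and 1 was called lower, PSMD10, which is 2% against 3.3% of all genes. These shares are near the background, but the count of higher members moved with the settings. It was 0 with library size only (against 3.33% of all genes), with the length offset in edgeR (1.01%) and at an adjusted P value under 0.05 (3.02%). It was also 0 without shARMC5 replicate 2 (2.63%) or 3 (3.3%) or shNT replicate 1 (2.6%) or 3 (2.89%). It was 6 with genes of at least 1 count (against 3.7% of all genes) and 4 without shARMC5 replicate 1 (against 3.75%). The largest count, 12, came with a term for the replicate block, against 7.08% of all genes. Neither the labels nor the paper say that the replicate numbers pair the samples. The direction of the small differences was shared across the complex. Of the 33 constitutive subunits of the 20S core and 19S particle, 32 had a positive log2 fold change, against 49.5% of all genes tested, and SEM1 was the exception. Their median log2 fold change was 0.054, a level 3.84% higher, against -0.0014 over all genes tested. The 17 tested members outside the 26S complex had 6 positive values and a median of -0.048. With the unmatched transcripts described further on added to PSMB8 and PSMB9, 8 of the 17 were positive and the median was -0.0049. The subunits share libraries and size factors, so they are not replicates of the knockdown.

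**Figure D1:**
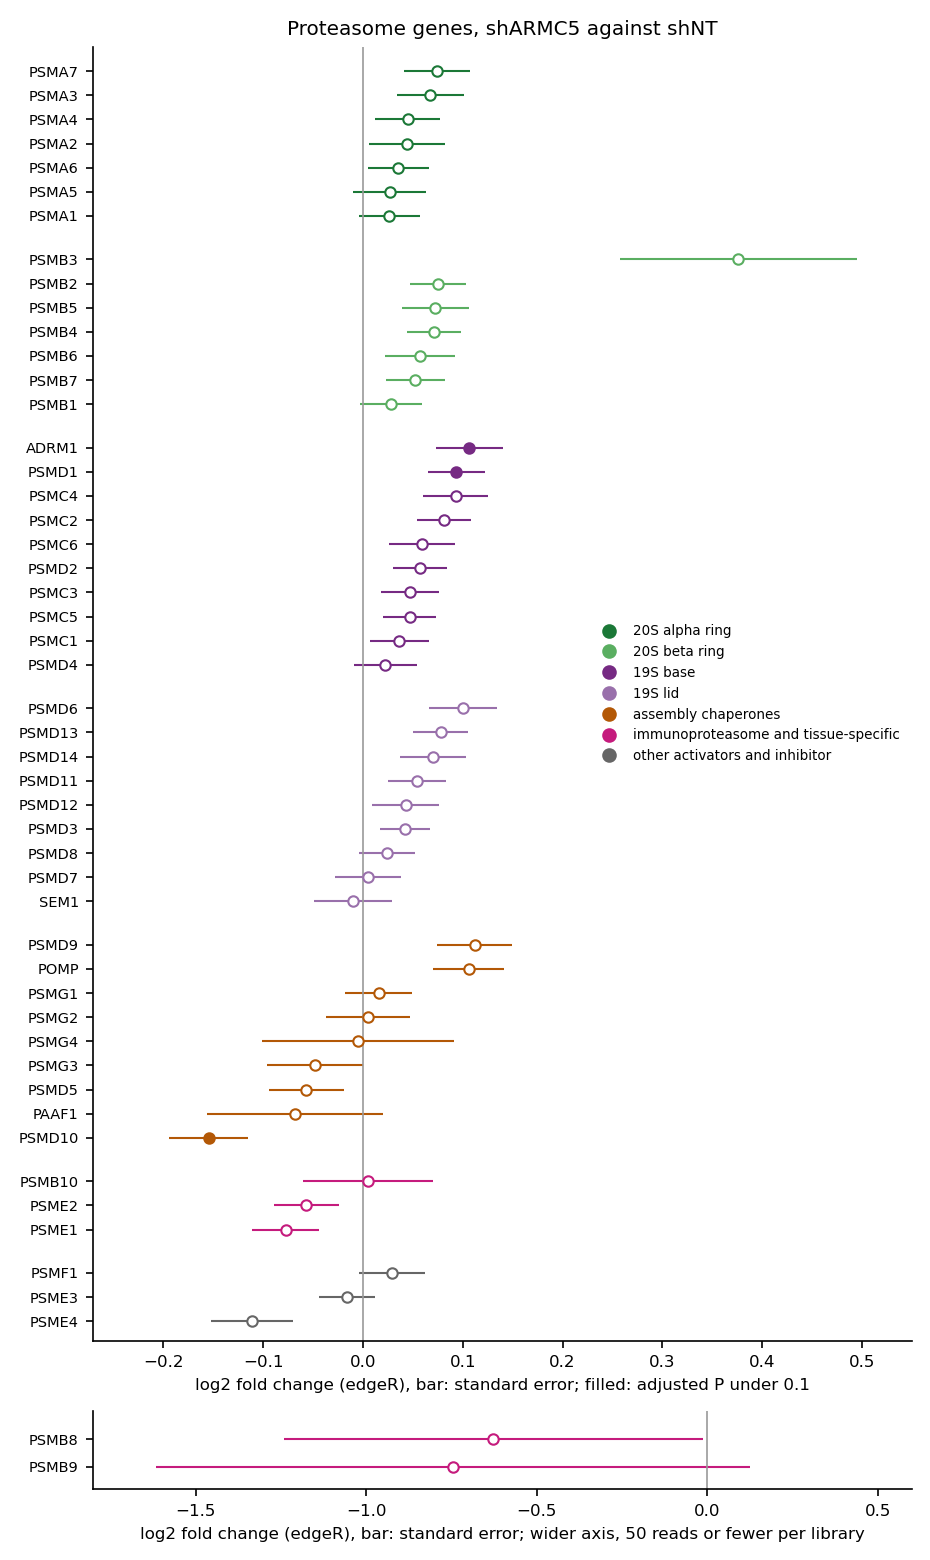
Log2 fold change of shARMC5 against shNT for each tested member (points, with the standard error as a bar), grouped by class, from edgeR. Filled points had an adjusted P value under 0.1. Nearly all subunits of the core and the 19S particle lie right of 0 by about 0.05, PSMD10 lies left of it, and PSMB8 and PSMB9 have a wider axis of their own because they rest on 50 reads or fewer per library.

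The difference was also read by library. The level of each gene was taken as log2(CPM + 0.5) relative to its own shNT mean. The median over the 33 subunits was 0.030, 0.066 and 0.070 in shARMC5 replicates 1, 2 and 3 and -0.035, 0.025 and 0.014 in shNT replicates 1, 2 and 3. The groups did not overlap, but shARMC5 replicate 1 lay only just above shNT replicate 2. In shNT replicate 1, 2 of the 33 subunits were above their shNT mean, against 26 in shNT replicate 2 and 21 in shNT replicate 3. In the shARMC5 libraries 27, 33 and 31 of the 33 were above it. Without shNT replicate 1 the median log2 fold change of the 33 was 0.036 and 29 were positive, and without shARMC5 replicate 1 it was 0.068 and all 33 were positive. Every shARMC5 library was above every shNT library in CPM for 14 of the 33 subunits (42.4%), against 12.5% of all genes tested. On deposited TPM, which also divides by effective length, this held for 4 of the 33, PSMA3, PSMB2, PSMB3 and PSMB5, against 6.68% of all genes tested.

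**Figure D2:**
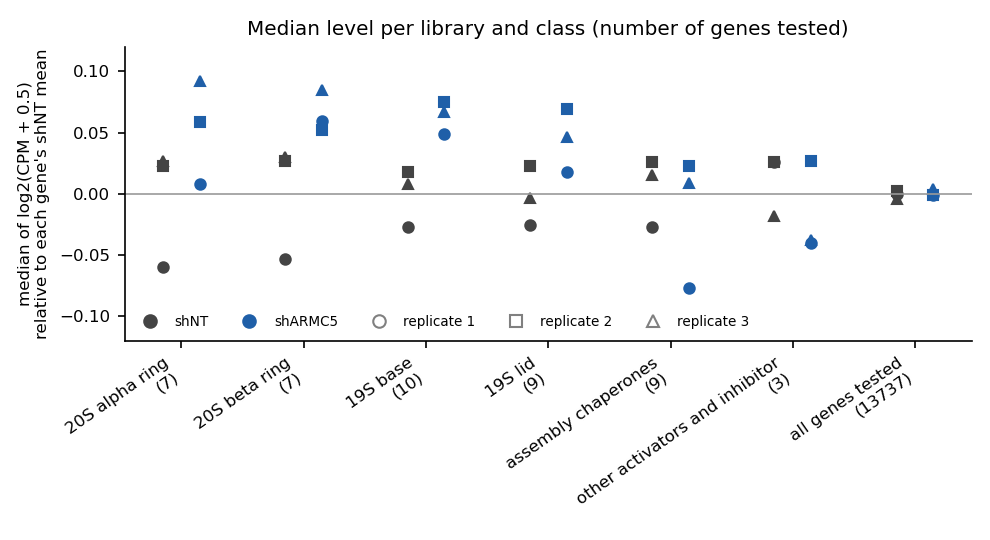
Median level of each class in each library, as log2(CPM + 0.5) relative to each gene's shNT mean, with 1 point per library and the number of genes tested in parentheses. The core and 19S classes sit mostly higher in the shARMC5 libraries, shNT replicate 1 is the lowest library in each of these classes, the chaperones have shARMC5 replicate 1 lowest at -0.077, and all genes tested lie at 0.

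The alpha ring of the core had 7 of 7 members with positive values, a median log2 fold change of 0.044 and none called. The range ran from PSMA1 to PSMA7. PSMA7 was at 281, 288 and 299 CPM in shARMC5 and 262, 283 and 279.8 CPM in shNT libraries, which overlapped. Its log2 fold change was 0.074 (SE 0.033, adjusted P = 0.251 from edgeR), and 0.040 without shNT replicate 1. PSMA1 was at 196, 208 and 199.6 CPM in shARMC5 and 196, 204 and 193 CPM in shNT libraries, also overlapping, with a log2 fold change of 0.027 (SE 0.031, adjusted P = 0.717 from edgeR). PSMA1 was near enough to 0 that its sign changed with an offset for transcript length (-0.013 in edgeR). Of the alpha ring, 1 member had an unadjusted P value under 0.05 and a positive value, PSMA7, against 9.78% of all genes.

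In the beta ring all 7 members were again positive, with a median of 0.071, and 4 had an unadjusted P value under 0.05, against 9.78% of all genes with a higher level. PSMB3, whose value depends on unmatched reads, was among the 4, and none was called. The catalytic subunits were close to each other in their fold changes. PSMB5, the chymotrypsin-like subunit (chr14:23016543-23035230, minus strand, GRCh38), was at 164, 163 and 170.0 CPM in shARMC5 and 150.4, 161 and 162 CPM in shNT libraries. Its groups did not overlap, and its log2 fold change was 0.073 (SE 0.033, adjusted P = 0.264 from edgeR). PSMB6, the caspase-like subunit (chr17:4796144-4798502, plus strand), was at 115, 112 and 118 CPM against 107, 114 and 112 CPM, with a log2 fold change of 0.057 (SE 0.035, adjusted P = 0.425 from edgeR). PSMB7, the trypsin-like subunit (chr9:124353465-124415444, minus strand), was at 198, 202 and 207 CPM against 189, 199.6 and 197 CPM, with a log2 fold change of 0.052 (SE 0.030, adjusted P = 0.377 from edgeR). For PSMB6 and PSMB7 the groups overlapped because shNT replicate 2 lay above 1 of the shARMC5 libraries. Without shNT replicate 1 the log2 fold changes of PSMB5, PSMB6 and PSMB7 were 0.040, 0.031 and 0.031. PSMB1, a structural subunit and the lowest of the ring, was at 209.6, 213 and 214 CPM against 199, 212 and 214 CPM, with a log2 fold change of 0.028 (SE 0.031, adjusted P = 0.701 from edgeR).

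PSMB3, a structural beta subunit (chr17:38752741-38764225, plus strand), had the highest fold change of all tested members. It was at 120.3, 94.5 and 98.9 CPM in shARMC5 and 75.002, 80.2 and 86.4 CPM in shNT libraries, and every shARMC5 library was above every shNT library. Its log2 fold change was 0.38 (SE 0.12, adjusted P = 0.210 from edgeR), with P values between 0.00418 and 0.437 over the alternatives. It was called by DESeq2 (adjusted P = 0.0486) and by edgeR without shARMC5 replicate 1 (log2 fold change 0.26, adjusted P = 0.0159). Only 1 of the 6 annotated PSMB3 transcripts is listed under its own identifier. A run of 6 unmatched transcripts, of which 5 have the lengths of the 5 absent ones, held 1628, 3163 and 1809 reads in the shARMC5 and 2823, 2844 and 2268 reads in the shNT libraries, beside 3645, 3727 and 2493 and 2452, 2601 and 2422 reads on the matched one. The library with the most reads on the matched transcript for its depth, shARMC5 replicate 1, had the fewest on the unmatched run. With both added, the log2 fold change of PSMB3 was 0.065 (SE 0.029, adjusted P = 0.251 from edgeR), close to that of the other beta subunits. Of the 14535 reads on the run, 13519 were on its remaining transcript, of 773 bases, which has the length of no absent one. The run was assigned to PSMB3 by the other lengths in it, after the files were seen, and whether the longest transcript belongs to PSMB3 was not tested.

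The base of the 19S particle had 10 of 10 positive values, a median of 0.058, and both of the members called higher. At an unadjusted P value under 0.05, 5 of the 10 were higher, against 9.78% of all genes. ADRM1, the ubiquitin receptor also known as RPN13 (ENSG00000130706, chr20:62302093-62308862, plus strand), was at 173, 176 and 174 CPM in shARMC5 and 156, 171 and 159 CPM in shNT libraries. The groups did not overlap, and shNT replicate 2 came closest. The log2 fold change was 0.11 (SE 0.034, adjusted P = 0.0875 from edgeR). PSMD1, the scaffold RPN2 (ENSG00000173692, chr2:231056845-231173116, plus strand), was at 193, 202 and 199 CPM against 188, 184.5 and 184 CPM, again without overlap. Its log2 fold change was 0.093 (SE 0.029, adjusted P = 0.0733 from edgeR).

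Neither call was stable. Over 16 alternatives ADRM1 kept a log2 fold change between 0.082 and 0.15 and was called in 6, with adjusted P values between 0.0117 and 0.346, and PSMD1 kept 0.076 to 0.11 and was called in 6, with adjusted P values between 0.0319 and 0.351. With a library left out, ADRM1 was called only without shNT replicate 2 (0.0117) and PSMD1 only without shARMC5 replicate 1 (0.0518). PSMD4, the ubiquitin receptor RPN10 and the lowest member of the base, was at 147, 151 and 152 CPM against 146, 153 and 144 CPM. Its log2 fold change was 0.022 (SE 0.032, adjusted P = 0.776 from edgeR). With a library left out it ranged from 0.0037 (without shNT replicate 3) to 0.050 (without shNT replicate 2). The ATPases PSMC1 to PSMC6 had positive values between 0.037 and 0.093, with PSMC4 (adjusted P = 0.132) and PSMC2 (adjusted P = 0.108) the nearest to the threshold in edgeR's test. PSMC1 has a processed pseudogene, PSMC1P1 on chromosome 3, that carried 1373 to 2574 reads per library, or 18.9% to 24.9% of the reads on the pair, and salmon divided the reads that they share. The pair together was at 269.5 ± 5.38 CPM in shARMC5 cells, against 261 ± 7.05 CPM in shNT cells (SD, n = 3 each), 3.18% apart and overlapping. No other of the 46 pseudogenes named after members held more than 79 reads in a library.

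The lid had 8 of 9 positive values, a median of 0.043 and none called, and 2 members had an unadjusted P value under 0.05, against 9.78% of all genes with a higher level. PSMD6, the lid subunit RPN7 and its highest member, was at 151, 159 and 163 CPM in shARMC5 and 143, 148 and 149 CPM in shNT libraries, without overlap, with a log2 fold change of 0.10 (SE 0.034, adjusted P = 0.108 from edgeR). It was called in 3 of 16 alternatives: with genes of at least 1 count, with the replicate term and without shARMC5 replicate 1 (log2 fold change 0.13). SEM1, the small acidic subunit that ties the lid together, was at 86.5, 94.8 and 87.5 CPM against 89.8, 91.2 and 90.004 CPM. Its log2 fold change was -0.0097 (SE 0.039, adjusted P = 0.935 from edgeR), and its sign changed when either shARMC5 replicate 1 or 3 was left out. PSMD14, the deubiquitinase that removes ubiquitin chains from substrates, had a log2 fold change of 0.070 (SE 0.033, adjusted P = 0.278 from edgeR).

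**Figure D3:**
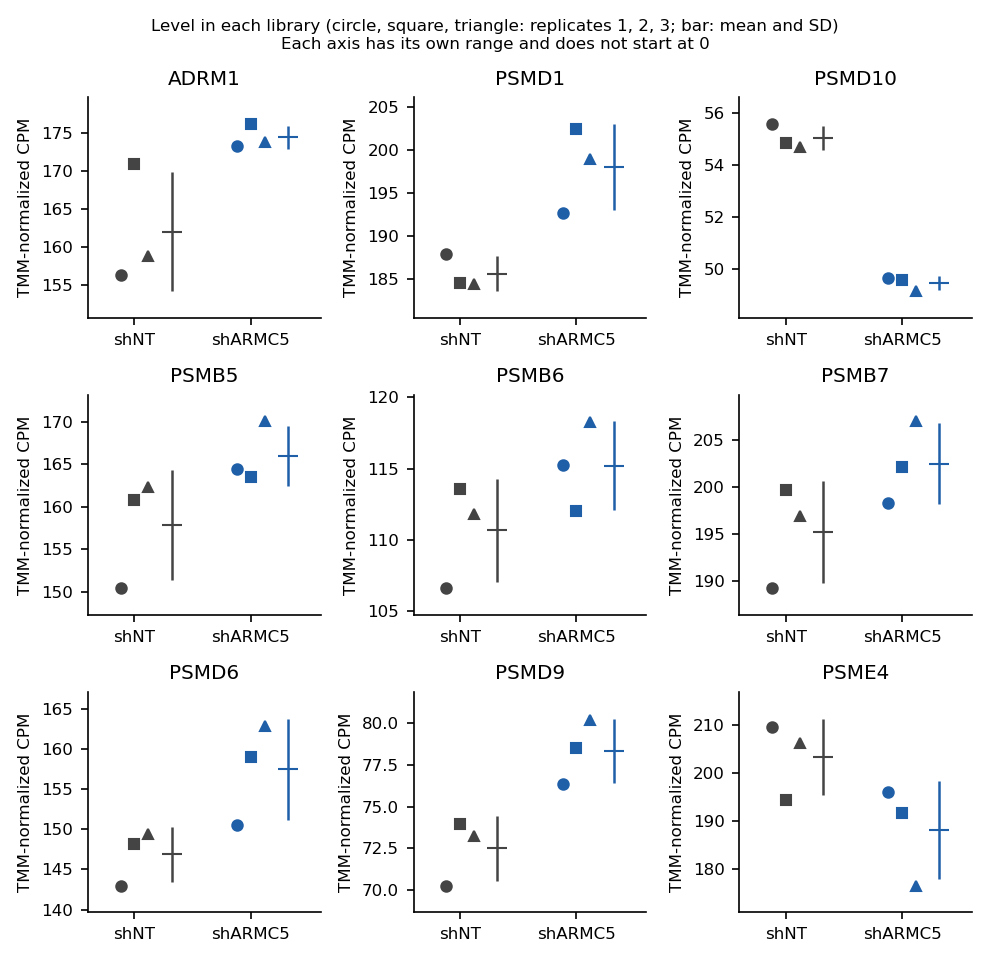
TMM-normalized CPM of 9 members in each library (circles, squares and triangles are replicates 1, 2 and 3; the bar gives the mean and SD of the group), with an axis of its own for each gene that does not start at 0. The PSMD10 groups do not overlap, at 49.1 to 49.7 against 54.7 to 55.6 CPM, while PSMB6, PSMB7 and PSME4 overlap.

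The assembly chaperones did not share a direction, with 4 of 9 positive values and a median of -0.0049. PSMD10, also called gankyrin, a chaperone of the base ATPases that also binds RB1 and MDM2 (ENSG00000101843, chrX:108084207-108091549, minus strand), was the member called lower. It was at 49.7, 49.5 and 49.1 CPM in shARMC5 and 55.6, 54.8 and 54.7 CPM in shNT libraries. Every shARMC5 library was below every shNT library for PSMD10, as for 10.9% of all genes tested. Its log2 fold change was -0.15 (SE 0.040, adjusted P = 0.0345 from edgeR), a level lower by 10.2%, on 1239 to 1954 reads per library. It was called in 13 of 16 alternatives, with log2 fold changes between -0.18 and -0.15 and adjusted P values between 0.0222 and 0.186. The calls that were lost came with the length offset in edgeR (0.186), without shARMC5 replicate 2 (0.117) and without shNT replicate 1 (0.133). On TPM its groups were also apart, at 58.2 to 60.8 against 65.3 to 71.2.

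PSMD9, another base chaperone, stood at the other end of the class with 76.4, 78.5 and 80.2 CPM against 70.3, 74.0 and 73.3 CPM. Its groups did not overlap, and its log2 fold change was 0.11 (SE 0.037, adjusted P = 0.107 from edgeR). POMP, which closes the core during assembly, had a log2 fold change of 0.11 (SE 0.035, adjusted P = 0.106 from edgeR), with every shARMC5 library above every shNT library. The core chaperones PSMG1 to PSMG4 ranged from -0.048 to 0.016, PSMD5 was at -0.057 and PAAF1 at -0.068, and none of these was called. PAAF1 and PSMG4 rested on 308 to 562 and 252 to 389 reads.

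The immunoproteasome genes gave no call, and at an unadjusted P value under 0.05 PSME1 was lower, against 8.28% of all genes. PSMB10 (chr16:67934506-67936864, minus strand) was at 22.4, 22.6 and 24.1 CPM in shARMC5 and 22.2, 24.5 and 22.1 CPM in shNT libraries, overlapping throughout, with a log2 fold change of 0.0053 (SE 0.065, adjusted P = 0.978 from edgeR). Its level per length was 16.2% ± 0.21 (SD, n = 3) of that of PSMB7 in shARMC5 and 16.4% ± 0.54 (SD, n = 3) in shNT cells on TPM. PSMB8 (chr6:32840717-32844679, minus strand) had 16, 25 and 11 reads against 50, 6 and 22, and PSMB9 (chr6:32844136-32859851, plus strand) had 7, 2 and 16 reads against 4, 24 and 16. Their log2 fold changes were -0.63 (SE 0.61, adjusted P = 0.664 from edgeR) and -0.75 (SE 0.87, adjusted P = 0.729 from edgeR), with overlapping groups. The GENCODE bounds of the 2 genes overlap at their ends, and the library kit does not mark strand. Reads from that stretch could not be told apart if both genes are transcribed there. The start that RefSeq gives for PSMB9 lies outside it. Whether any of the reads counted here came from the stretch was not tested.

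These low values depended on which transcripts were matched. The canonical PSMB8 transcript, of 1124 bases, is not listed under its own identifier, and 4 of the 5 annotated PSMB9 transcripts are not either. Unmatched transcripts assigned to PSMB8 held 1190, 1666 and 980 reads in the shARMC5 and 1251, 1172 and 1050 reads in the shNT libraries, nearly all of them on a transcript of 1124 bases, except in shARMC5 replicate 1, where a transcript of 1125 bases held 1157 of them. Those assigned to PSMB9 held 126, 167 and 116 reads against 135, 129 and 108 reads. With them added, PSMB8 was at 55.9 ± 3.15 TPM (SD, n = 3) in shARMC5 and 53.3 ± 3.72 TPM (SD, n = 3) in shNT cells, 24.95% ± 1.74 and 24.8% ± 1.82 of PSMB5 (SD, n = 3 each), and its log2 fold change was 0.095 (SE 0.055, adjusted P = 0.389 from edgeR). PSMB9 was at 9.69 ± 0.81 and 9.35 ± 0.60 TPM (SD, n = 3 each), with a log2 fold change of 0.050 (SE 0.14, adjusted P = 0.905 from edgeR). The 3 catalytic immunoproteasome genes then summed to 15.2% ± 0.52 of the TPM of PSMB5, PSMB6 and PSMB7 in shARMC5 and 15.1% ± 0.71 in shNT cells (SD, n = 3 each), against 6.96% ± 0.17 and 7.14% ± 0.27 without them. The groups overlapped either way. The assignment again used the lengths in a run, and for PSMB8 also lone transcripts within 1 base of the canonical length, which added the 1157 reads above. For PSMB9, 731 of the 781 added reads were on transcripts of 782 bases, the length of no absent one.

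**Figure D4:**
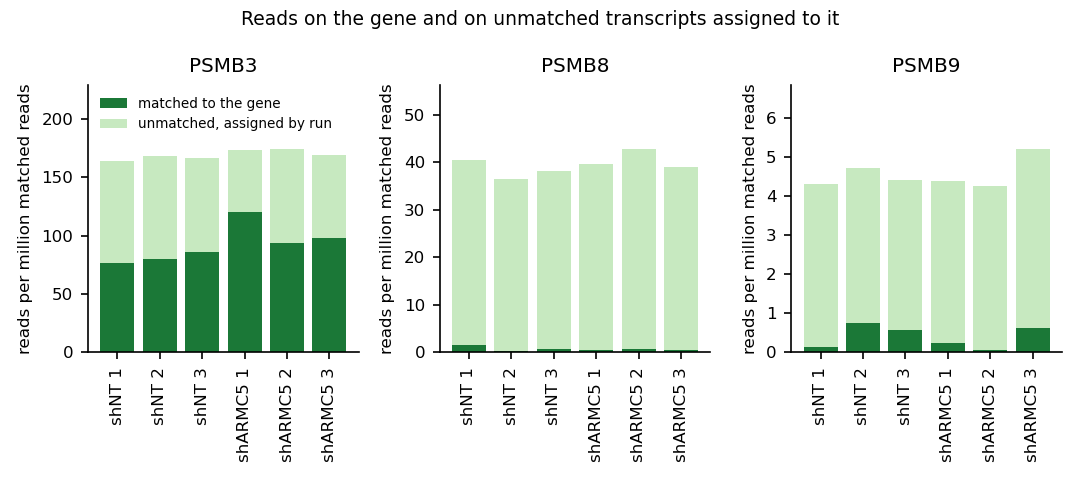
Reads per 1000000 matched reads in each library for PSMB3, PSMB8 and PSMB9, as bars of reads matched to the gene by identifier (dark) and reads on unmatched transcripts assigned to it by the lengths in their run (light). For PSMB3 the dark part is larger in the shARMC5 libraries and the light part smaller, so that the whole bars are nearly level, and for PSMB8 and PSMB9 nearly all reads are in the light part.

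PSME1 and PSME2, which form PA28, had log2 fold changes of -0.077 (SE 0.033, adjusted P = 0.227 from edgeR) and -0.057 (SE 0.033, adjusted P = 0.387 from edgeR). PSME1 was lower in every shARMC5 library than in every shNT library, on CPM and on TPM, as 10.9% of all genes were on CPM and 9.65% on TPM, and PSME2 overlapped. PSME4, the nuclear activator PA200, was at 196, 192 and 177 CPM against 209.6, 194 and 206 CPM, which overlapped, with a log2 fold change of -0.11 (SE 0.041, adjusted P = 0.172 from edgeR). It was called lower in 3 of 16 alternatives. These were genes of at least 1 count (log2 fold change -0.11, adjusted P = 0.0140 from edgeR) and leaving out shARMC5 replicate 1 (-0.14) or shNT replicate 2 (-0.14). Without shARMC5 replicate 3 the log2 fold change was -0.071 (adjusted P = 0.364 from edgeR). Without shNT replicate 1 it was -0.088 (adjusted P = 0.431 from edgeR). PSMF1, the inhibitor PI31, was at 139.6, 144 and 141 CPM against 141, 143 and 132 CPM, with a log2 fold change of 0.029 (SE 0.033, adjusted P = 0.714 from edgeR). PSME3, the nuclear PA28 gamma, was at -0.016 (SE 0.028, adjusted P = 0.826 from edgeR). The testis and thymus subunits PSMA8 and PSMB11 were not tested: PSMA8 had 0 reads in every library and PSMB11 had 2 reads in shNT replicate 2 and 0 elsewhere.

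Levels were compared between subunits on TPM, which is per length. In shNT cells the 33 constitutive subunits spanned 84.9 TPM for PSMD1 to 496 TPM for PSMA7, a 5.84-fold range, with a median of 215 TPM. The core subunits had a median of 265 TPM and the 19S subunits of 174 TPM. Between neighbours in this order, the shNT libraries overlapped for 24 of 32 pairs, so most neighbouring ranks are not apart, while PSMA7 lay above all others and PSMD1 below all others in every shNT library. PSMB3 stood at 180.7 TPM, place 19 of 33, by identifier and would be at 375 TPM, place 5, with its unmatched run added. The rank of other genes rested on short transcripts. A SEM1 transcript of 350 bases made up 74.0% of its TPM in shNT cells, and a PSMC1 transcript of 606 bases annotated as a retained intron made up 53.2%. The chaperones were lower, with a median of 81.4 TPM and a range from 12.7 TPM for PAAF1 to 229 TPM for PSMG1.

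**Figure D5:**
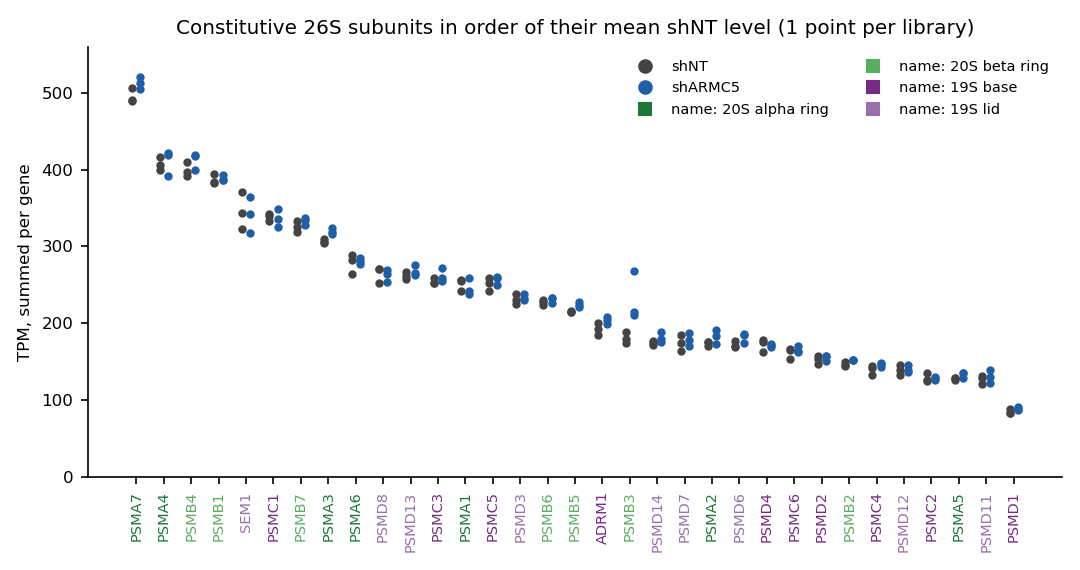
TPM of the 33 constitutive subunits in each library, ordered by their mean in shNT cells, with the names coloured by ring or subcomplex and 1 point per library. The order runs from PSMA7 at 496 to PSMD1 at 84.9 TPM, and the shARMC5 points lie among or just above the shNT points for nearly every subunit.

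Summed over the 20S core, TPM was 4047, 4073 and 4052 in shARMC5 and 3920.5, 3970.2 and 3878 in shNT libraries, 3.43% higher and without overlap. Without PSMB3 the core differed by 2.25% and the groups overlapped, and with the unmatched PSMB3 transcripts added it differed by 2.35% and they did not. The 19S particle summed to 3804, 3933 and 3755 TPM against 3843, 3799.5 and 3656 TPM, which overlapped. The sum over all 33 was 7888 ± 104 TPM (SD, n = 3) in shARMC5 and 7689 ± 134 TPM (SD, n = 3) in shNT cells, 2.59% higher, with no overlap between the libraries. Without PSMB3 the difference of the 33 was 1.98% and the groups overlapped, and with the unmatched PSMB3 transcripts added it was 2.04% and they did not.

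Transcripts of the members were also tested one by one. Of 478 listed, 259 passed the filter on low counts, and none was called by edgeR at an adjusted P value under 0.1. At an unadjusted P value under 0.05 there were 15 of the 259 (5.79%), against 4.93% of all 49809 transcripts tested, of which 4 were called (0.00803%). The lowest adjusted P value of a member transcript was 0.633, for the canonical transcript of ADRM1 of 1379 bases (log2 fold change 0.11, SE 0.028). The canonical PSMD10 transcript, with 1470 bases, was at -0.12 on the log2 scale (SE 0.042, adjusted P = 0.897 from edgeR over transcripts). In 45 of the members a single transcript held most of the TPM, and in 35 the transcript with the most TPM was the canonical one.

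NRF1 and the related factor NRF2 bind antioxidant response elements, and the core letters TGACNNNGC were searched on both strands in the RefSeq promoter windows of the members (GRCh38.p14, 250 bases before to 50 bases after the start). Of the 46 members with a window, 14 held the core (30.4%), against 13.3% of all 35116 windows and 14.9% of those of tested genes. It was in 6 of 28 constitutive subunits (21.4%) and in 8 of 18 other members, PSMB9, PSMD5, PSMD9, PSME1, PSME2, PSME4, PSMG1 and PSMG2. PSMA7, PSMB1, PSMB6, PSMB7, PSMD4 and PSMG3 had no window. The cores of the constitutive subunits are shown because both members called higher are among them. Each stretch is written 5′ to 3′ on the strand of its gene, with the core in capitals, in the reverse complement where it lies on the other strand.
ADRM1 (chr20:62302749-62302777, plus strand): cgctcccctaTGACACAGCaacaataggg
PSMB3 (chr17:38752627-38752655, plus strand): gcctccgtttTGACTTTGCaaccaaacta
PSMC4 (chr19:39971182-39971210, plus strand): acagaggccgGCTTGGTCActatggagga
PSMD1 (chr2:231056896-231056916, plus strand): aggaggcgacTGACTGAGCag
PSMD12 (chr17:67366724-67366752, minus strand): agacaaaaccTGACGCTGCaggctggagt
PSMD3 (chr17:39980760-39980788, plus strand): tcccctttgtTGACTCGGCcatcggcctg
PSMD3, second core (chr17:39980830-39980856, plus strand): gtttgcagctGCTCCGTCAtcgtgcgg

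The cores of ADRM1, PSMB3, PSMD12 and the first of PSMD3 lie before the RefSeq start and have the orientation of the gene, while those of PSMC4, PSMD1 and the second of PSMD3 lie after it. The 6 subunits with a core had a median log2 fold change of 0.093 (0.042 to 0.38) and the 22 without had a median of 0.051 (-0.0097 to 0.10). The 8 other members with a core had a median of -0.057 (-0.75 to 0.11), with 5 negative and 3 positive. The RefSeq start of ADRM1 lies 803 bases inside the GENCODE gene given above, so its core is inside that gene. Among the 8 other members, the cores of PSMB9, PSME2 and PSMG2 also lie inside their GENCODE genes. This is a description of letters in a window, PSMB3 with its unmatched reads is among the 6, and no test was made.

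Of the 13 genes of the pathway that controls subunit genes through NRF1, 1 was called higher and 1 lower, against 4.44% and 3.3% of all genes. NFE2L1, which encodes NRF1, was at 215, 217 and 209 CPM in shARMC5 and 211, 204 and 206 CPM in shNT libraries, overlapping, with a log2 fold change of 0.046 (SE 0.028, adjusted P = 0.421 from edgeR). With an offset for transcript length it was 0.20 in edgeR (adjusted P = 0.389) and in DESeq2 (adjusted P = 0.163). Its partner MAFF, a small MAF protein, was at 11.4, 10.8 and 9.91 CPM against 8.44, 8.94 and 7.21 CPM. It rose, with a log2 fold change of 0.38 (SE 0.10, adjusted P = 0.0444 from edgeR), and its groups did not overlap. OGT, which glycosylates NRF1 among many proteins, fell by 0.15 on the log2 scale (SE 0.043, adjusted P = 0.0610 from edgeR), with levels of 107, 101 and 102 CPM against 118, 106 and 119.6 CPM that overlapped. Over the alternatives MAFF was called in 10 of 16 and OGT in 9 of 16, and leaving out a single library ended the call of MAFF for shARMC5 replicates 1 and 2 (adjusted P = 0.141 and 0.151) and shNT replicates 1 and 3 (0.108 and 0.163). The call of OGT ended without shARMC5 replicates 2 and 3 (0.233 and 0.184) and without shNT replicates 1 and 3 (0.246 and 0.213).

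The protease and the deglycosylase that release and process NRF1 were not called. DDI2 had a log2 fold change of -0.10 (SE 0.040, adjusted P = 0.165 from edgeR) and NGLY1 of 0.025 (SE 0.052, adjusted P = 0.861 from edgeR). NFE2L2, which encodes NRF2, was at -0.0073 (SE 0.030, adjusted P = 0.937 from edgeR).

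Among 12 tested partners of the immunoproteasome in antigen presentation, none was called higher and 1 was called lower (8.33%), against 4.44% and 3.3% of all genes. ERAP2, an aminopeptidase that trims peptides in the endoplasmic reticulum, fell by 0.12 on the log2 scale (SE 0.033, adjusted P = 0.0529 from edgeR), with 114, 117 and 109.8 CPM against 123, 123 and 125 CPM and no overlap. It was called in 10 of 16 alternatives and not without shARMC5 replicate 1 (0.105) or 3 (0.176) or shNT replicate 1 (0.132) or 3 (0.156). With the length offset its value was -0.22 in edgeR, where the call was lost (adjusted P = 0.200), and -0.22 in DESeq2 (adjusted P = 0.0463). The median of the 12 was 0.034, and TAP2, with 0 to 786 reads, was not tested. TAP2 was at 12.8 and 24.2 CPM in shNT replicates 1 and 2 and at 0 in every other library. The canonical transcripts of TAP1 and NLRC5, and of ECPAS among the shuttle proteins, are not listed under their own identifiers. The totals of these genes can therefore be partial, and their unmatched reads were not searched for. None of the 16 tested proteasome-bound and shuttle proteins was called by edgeR (median -0.011), such as the deubiquitinases USP14 and UCHL5 and the shuttle RAD23B, and 1 was higher at an unadjusted P value under 0.05, as were 9.78% of all genes. None of the 13 genes of ubiquitin and its activation was called by edgeR (median 0.024), and again 1 was higher at an unadjusted P value under 0.05.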

How the data were processed

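RNA-seq libraries of shARMC5 and shNT cells, 3 each, were analysed. The authors used cutadapt 4.2 for trimming, then salmon 1.9.0 with correction for GC content. The deposited estimated counts were summed per gene and rounded, and the TPM deposited by the authors was summed per gene as given. Transcript identifiers were matched without version to GENCODE 44 (GRCh38), since the transcript set is not given in the sources used here. Of 177456 transcripts 11923 had no match, with 2.96% to 3.04% of reads, and were left out. In an alternative chosen after seeing the data, whole runs of unmatched transcripts that held at least 3 lengths of a member's absent transcripts were added to it, and for PSMB8 also lone ones within 1 base of its canonical transcript.

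Genes passed the filter with 10 or more counts in 3 or more libraries. The test was the quasi-likelihood test of edgeR 4.0.16, run in R 4.3.3, using TMM factors, robust fitting, condition as the only term and Benjamini-Hochberg adjustment over all genes. An adjusted P value under 0.1, the study's threshold, is called. In data simulated for this comparison with a log2 change of 1 in 200 of 13737 genes, edgeR recovered 92% with 12.4% of its calls false, and DESeq2 1.42.0 recovered 87.5% with 11.2% false. Estimated counts carry a counting error that limits genes with few reads. The members and gene lists were chosen with earlier results of these data known. Values per library were given for called members, catalytic subunits and the lowest and highest member of each class; PSMB3's and other unmatched reads, PSMA3, PSMB2, PSMC1, PSMC2, PSMC4, PSMD14, POMP and PSME1 were named after their values were seen. Of each pathway list, the called genes were named, with NFE2L1, NFE2L2, DDI2 and NGLY1. Alternatives were DESeq2's size factors, library size only, genes with at least 1 count, an offset for transcript length, DESeq2 without and with that offset, a replicate term, each library left out, an adjusted P value under 0.05, and unmatched transcripts added to the gene listed before them. Promoter windows came from RefSeq (GRCh38.p14). Some genes of the marker and pathway lists are not reported here by name.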

Additional observations from a re-analysis of the deposited data

Results flagged for a closer look

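Reads on transcripts that could not be matched to the annotation stood out because they lie outside the gene totals that were compared. Unmatched transcripts assigned to PSMB3 held 14535 reads over the 6 libraries, those assigned to PSMB8 held 7308 and those assigned to PSMB9 held 781. Only 1016 of the PSMB3 and 51 of the PSMB9 reads were on transcripts with the length of an absent one, against 6138 for PSMB8. Which of them belong to the genes was not tested beyond the lengths in a run.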

How the results depend on the processing

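Over the alternatives the median log2 fold change of the 33 constitutive subunits stayed between 0.036 and 0.068, while the calls of single members moved. All genes called numbered 1064 in the analysis as reported, 234 with the length offset in edgeR, 568 with it in DESeq2, 676 at an adjusted P value under 0.05, 1537 with genes of at least 1 count and 536 to 1085 with a library left out. The fewest were without shNT replicate 1 (536), shARMC5 replicate 2 (600) and shNT replicate 3 (694). Members called higher numbered 2 as reported, against 4.44% of all genes. They numbered 0 with library size only (3.33% of all genes), the length offset in edgeR (1.01%) or a threshold of 0.05 (3.02%). DESeq2 called 1, PSMB3, without (3.66%) or with the offset (2.18%), and 6 were called with genes of at least 1 count (3.7%). With a library left out they numbered 0 without shARMC5 replicate 2 (2.63%) or 3 (3.3%) or shNT replicate 1 (2.6%) or 3 (2.89%). They numbered 4 without shARMC5 replicate 1 (3.75%) and 3 without shNT replicate 2 (4.61%). Members called lower numbered 1 as reported, against 3.3% of all genes. There were 0 with the length offset in edgeR (0.692%) and 2 with genes of at least 1 count (3.48%). With a library left out they numbered 0 to 2. There were 0 without shARMC5 replicate 2 (1.81%) or shNT replicate 1 (1.37%), and 2 without shARMC5 replicate 1 (3.02%) or shNT replicate 2 (3.39%). With a term for the replicate block 1766 genes were called. Members called were then 12 higher and 1 lower, against 7.08% and 5.78% of all genes. Neither the labels nor the paper say that the numbers pair the samples. Over all genes tested, the correlations of same-numbered libraries, each relative to its group mean, were -0.014, -0.0059 and -0.022. Those of other pairs were -0.015 to 0.027. For the median of the 33 subunits, replicate 1 was the lowest library in both groups. Pairing was not tested for the subunits. The cause of these shifts was not tested.

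Among class medians, that of the chaperones ranged from -0.035 to 0.019 with a library left out, positive without shARMC5 replicate 1 and shNT replicate 3. That of the immunoproteasome genes went from -0.077 to 0.0053 with unmatched transcripts added. With genes of at least 1 count it went the other way, to -0.354 over 6 members. Of the named genes, PSMB10 was at -0.0087 with library size only, SEM1 at 0.00067 and PSMA1 at -0.013 with the offset in edgeR, SEM1 at 0.00025 and PSMA1 at -0.014 with it in DESeq2, and PSMB8 at 0.095 and PSMB9 at 0.050 with unmatched transcripts added. With a library left out the ranges were -0.028 to 0.056 for PSMB10, -0.054 to 0.017 for SEM1 and -1.11 to 0.18 for PSMB8. They were -0.0040 to 0.048 for PSMB1, -0.0029 to 0.049 for PSMF1, -0.038 to 0.071 for NGLY1 and -0.019 to 0.011 for NFE2L2. PSMB9 ranged from -1.22 to -0.17 where it was tested, and PSMA1 from 0.0021 to 0.049. The length offset in edgeR moved NFE2L1 from 0.046 to 0.20, ERAP2 from -0.12 to -0.22, NGLY1 from 0.025 to 0.059 and PSMB10 from 0.0053 to 0.034. PSMB8 and PSMB9 have 2 to 50 reads per library by identifier, and their values depend on the matching.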
